A study of Mus musculus with 2 samples.

Results

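The genes described here are 10 core components of transforming growth factor beta (TGF-beta) signalling, namely the ligand gene Tgfb1, the receptor genes Tgfbr1, Tgfbr2 and Tgfbr3, the signal transducers Smad2, Smad3 and Smad4, the inhibitory Smad7, and the corepressor genes Ski and Skil. They were chosen by name, and each was given a window of its mm10 RefSeq gene body with 20 kb on either side. Regions of the mark H3K36me2 (a dimethylated lysine of histone H3) that overlapped these windows were then collected from both libraries. The windows, 1126 kb in all, held 111 of the 39745 regions called in Nsd2 knockout cells and 133 of the 54527 called in wild-type cells. The 10 genes belong to 21631 coding genes that were placed on chromosomes 1 to 19 and X.

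Both libraries were made from splenic regulatory T (Treg) cells of C57BL/6 mice. The knockout library is from animals with a conditional, Treg-directed deletion of Nsd2, and the other library is from wild-type animals. Nsd2 encodes a histone methyltransferase that places H3K36me2. The driver of the deletion, the number of animals behind each library, their age and sex, and the antibody are not stated in the labels. Each genotype has 1 library, so differences have no replicate check and carry no p-value. All intervals cover counting error only, and PCR reads without molecular identifiers are not independent molecules.

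TGF-beta binds the type II receptor, which then phosphorylates the type I receptor. The active type I receptor phosphorylates Smad2 and Smad3, which join Smad4 and act in the nucleus, while Smad7 blocks the receptor step and Ski and SnoN (the Skil product) hold Smad complexes in a repressed state. In T cells the pathway helps to induce Foxp3, the lineage factor of Treg cells, and Treg cells make and activate TGF-beta themselves. H3K36me2 is a broad mark of intergenic and gene-body chromatin, laid down before the trimethylated form that follows transcription.

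The knockout library had 14789700 tags and the wild-type library 17158154. The region caller asked for 12 tags per 500 bp peak in the knockout and 13 in wild type, which is 8.11 and 7.58 tags per 10000000, so it was stricter in the knockout. Over chromosomes 1 to 19 and X, knockout regions covered 31.4 Mb and wild-type regions 42.3 Mb. All 6 T cell marker genes checked (Cd3e, Cd3d, Cd3g, Cd4, Bcl11b and Lck) held a region in both libraries, with 44.0% of their pooled bodies covered in the knockout and 43.1% in wild type. Of 5 Treg markers, Foxp3, Il2ra, Ikzf2 and Tnfrsf18 held a region in both and Ctla4 in neither, with 16.6% covered in the knockout and 15.0% in wild type. The 4 myeloid genes were covered to 2.58% in the knockout and 3.41% in wild type, with Lyz2 and Cd14 at 0 in both. The 4 CD8 and NK genes were covered to 0% in the knockout and 4.86% in wild type, with all 4 at 0 in the knockout and Cd8a and Ncr1 at 0 in wild type. Both of these lists had less cover in the knockout. The part of other cell types in the values below was not tested, and in bulk cells a mark carried by fewer cells and less of it per cell cannot be told apart.

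The promoter is the place where the libraries could be set against DNA sequence, and 5 of the 10 genes had an entry in the RefSeq promoter table (GRCm38.p6, the assembly of mm10). The 250 bases before the gene start are printed for 3 of them, because a called region reached this window at Tgfb1 in wild type and at Smad3 in the knockout, while Ski, the gene with the longest covered length, had none there in either library. Capitals mark bases inside a called region of either library.
Tgfb1, chr7:25686752-25687001, plus strand: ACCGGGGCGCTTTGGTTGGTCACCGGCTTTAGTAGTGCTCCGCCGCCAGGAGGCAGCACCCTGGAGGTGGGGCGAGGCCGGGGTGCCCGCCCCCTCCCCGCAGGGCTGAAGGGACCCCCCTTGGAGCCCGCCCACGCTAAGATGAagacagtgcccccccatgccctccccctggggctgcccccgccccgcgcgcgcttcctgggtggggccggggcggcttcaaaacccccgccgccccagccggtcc
Smad3, chr9:63757995-63758244, minus strand: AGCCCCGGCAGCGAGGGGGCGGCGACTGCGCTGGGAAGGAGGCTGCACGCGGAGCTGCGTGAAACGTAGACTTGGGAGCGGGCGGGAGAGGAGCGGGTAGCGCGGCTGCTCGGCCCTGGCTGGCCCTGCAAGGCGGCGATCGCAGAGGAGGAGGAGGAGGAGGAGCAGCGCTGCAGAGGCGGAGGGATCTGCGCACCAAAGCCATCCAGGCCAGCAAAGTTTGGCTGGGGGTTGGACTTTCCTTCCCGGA
Ski, chr4:155222536-155222785, minus strand: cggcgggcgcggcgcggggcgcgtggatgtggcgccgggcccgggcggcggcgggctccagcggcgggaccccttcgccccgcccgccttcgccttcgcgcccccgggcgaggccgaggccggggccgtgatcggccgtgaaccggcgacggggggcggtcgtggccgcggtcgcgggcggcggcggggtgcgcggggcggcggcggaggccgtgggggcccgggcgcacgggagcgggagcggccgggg

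At the Tgfb1 promoter, knockout regions covered 0 of the 250 bases and lay 141 bp away, whereas 1 wild-type region covered 145 bases. At the Smad3 promoter the order was opposite, with all 250 bases inside a knockout region and the nearest wild-type region 869 bp away. The Ski promoter held 53 CpG dinucleotides, more than 99.96% of the 32851 promoters in the table, and lay 366 bp from the nearest knockout region and 482 bp from the nearest wild-type region. At Tgfbr2 these distances were 109 bp in the knockout and 683 bp in wild type, and at the outer start of Tgfbr1 they were 1091 bp in the knockout and 30137 bp in wild type. A region touched 8.59% of all promoters in the knockout and 8.80% in wild type, over the 32619 promoters on chromosomes 1 to 19 and X. The 5-base Smad box CAGAC, searched on both strands, was found once at Tgfbr2 and once at an inner start of Tgfbr1, and in none of the 3 printed promoters. It occurs in 42.2% of all promoters. The GC-rich Smad motif GGCGC, on both strands, matched 7 times at Ski, 3 times at the outer start of Tgfbr1 and once at Tgfb1, and is present in 32.0% of promoters. The palindromic element GTCTAGAC, found in 0.17% of promoters, was in none of the 6 entries of these genes.

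Covered length, the base pairs of a window that lie inside called regions, differed widely among the 10 genes and much less between genotypes. Summed over all windows it was 128.6 kb in the knockout and 152.3 kb in wild type, so the knockout had 84.4% of the wild-type length. Over all coding-gene windows the same percentage was 82.05%, and over the whole lists it was 74.3%. Of the 8 genes with at least 1000 bp covered in either library, 5 had a smaller and 3 a larger covered length in the knockout. Over all coding-gene windows that met the same minimum, 63.7% were smaller and 35.6% larger. A difference of 2-fold or more, which is a criterion of size without a test, was reached by Tgfbr3 and Skil toward lower and by Tgfbr1 toward higher covered length in the knockout. Among the 12113 coding-gene windows measured in the same way, 31.3% were at least 2-fold lower and 12.2% at least 2-fold higher. The counts of 2 and 1 among 8 genes are therefore close to the background shares. When only the higher-scoring 50% of the regions of each list were kept, the pooled length turned to 109.9% of wild type, and that of all coding-gene windows was 80.6%. With the knockout's threshold applied to wild-type regions of 500 bp, these percentages were 90.4% for the 10 genes and 100.7% for all coding-gene windows, so the order of the genes and the background turned.

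**Figure D1:**
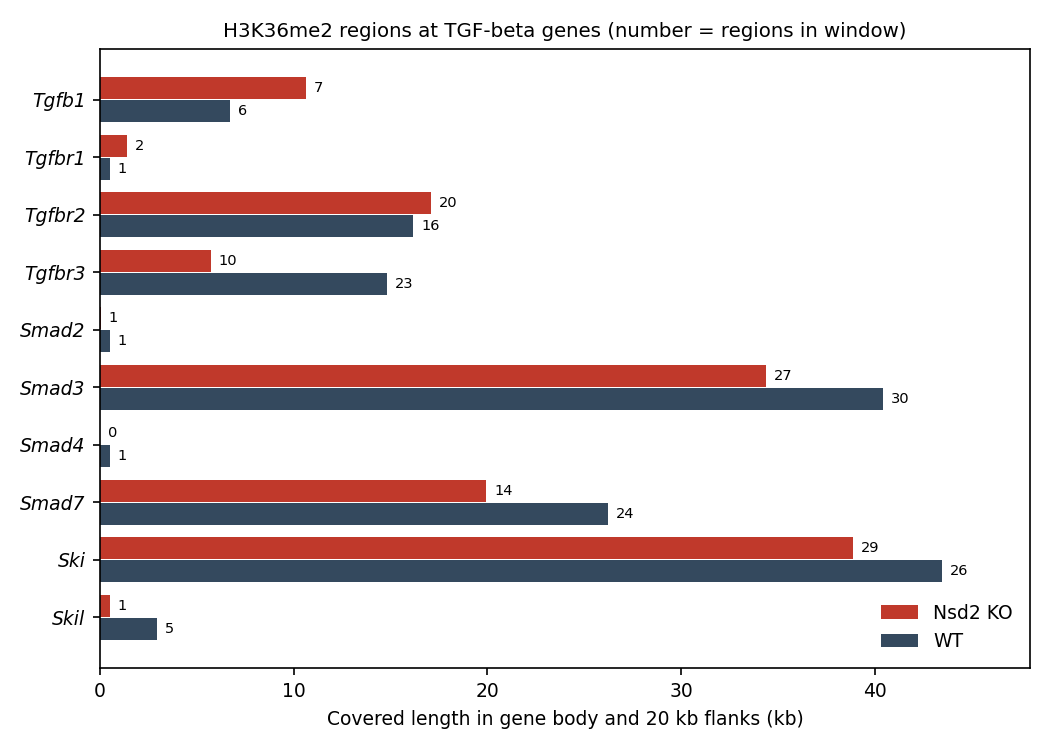
Covered length (kb) in the gene body and 20 kb flanks of each gene, with the Nsd2 knockout library as the upper bar and the wild-type library as the lower bar; numbers at the bar ends are regions per window, and there is 1 library per genotype. Ski, Smad3 and Smad7 held most of the covered length in both libraries, and Smad2 and Smad4 held at most 500 bp.

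**Figure D2:**
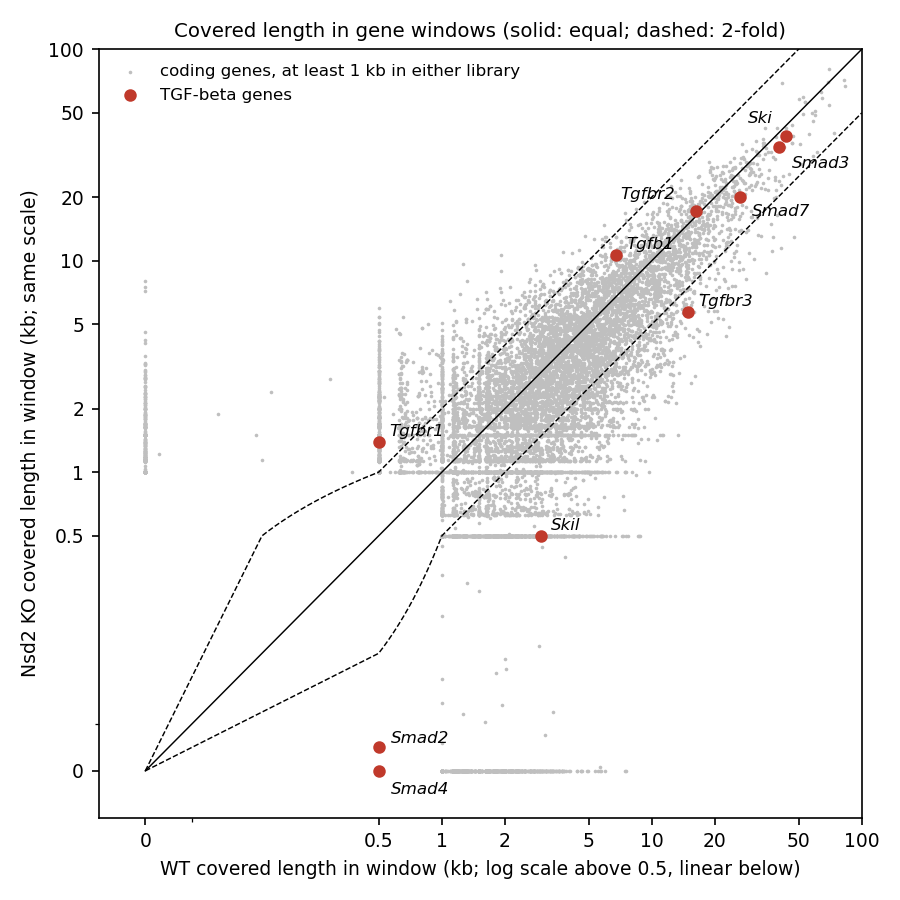
Covered length in the window of each gene in the knockout (vertical axis, kb) against wild type (horizontal axis, kb), for the TGF-beta genes in red and all coding genes with at least 1 kb in either library in grey; axes are logarithmic above 0.5 kb and linear below. Tgfbr3 and Skil lie below the 2-fold line and Tgfbr1 above it, while Ski, Smad3, Smad7, Tgfbr2 and Tgfb1 lie between the lines.

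The ligand gene Tgfb1 (chromosome 7, 25687002 to 25705077) encodes TGF-beta1, the isoform best known in lymphocytes. Its window held 10634 bp in 7 regions in the knockout and 6731 bp in 6 regions in wild type, 158% of the wild-type length. Normalised tag counts in these regions, scaled to 10000000 tags per library, were 192.8 in the knockout (exact Poisson 95% interval 171.1 to 216.5) and 107.5 in wild type (92.6 to 124.2). The gene body itself held 2502 bp in the knockout, or 13.8%, and 0 bp in wild type. Those bases lay in 2 knockout regions, one of 1736 bp that began 2015 bp past the gene start and one of 766 bp that began 16587 bp past it. Most of the rest lay before the gene start over B9d2, a neighbouring gene of the ciliary transition zone, which held 5223 bp in the knockout and 3566 bp in wild type inside the window. Without flanks the gene was covered in the knockout alone, and with 5 kb flanks it passed the 2-fold rule.

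Tgfbr1 (chromosome 4, 47353222 to 47414926) encodes the type I receptor kinase, also called ALK5. It held 1384 bp in 2 regions in the knockout and 500 bp in 1 region in wild type. Of the knockout regions, each of 692 bp, one lay 1091 bp from the promoter window and one began 14328 bp past the gene start, and the wild-type region lay beyond the far end of the gene. With so few regions, the 2.77-fold longer cover in the knockout rested on 3 calls that shared no base. Over the whole lists, 48.1% of knockout regions over 500 bp and under 1 kb were shared, and 16.0% of wild-type regions of 500 bp. The gene did not pass the criterion with no flanks (692 bp in the knockout and 0 bp in wild type, under the 1000 bp needed), with regions of at least 1 kb, where none was left, or with 50 kb flanks. Among measured coding genes of 30 to under 100 kb, 9.29% passed the criterion in this direction and 35.9% in the other.

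Tgfbr2 (chromosome 9, 116087695 to 116175363) encodes the type II receptor, the subunit that binds the ligand first. Its window held 17099 bp in 20 knockout regions and 16174 bp in 16 wild-type regions, 105.7% of the wild-type length. Tag counts were 275.4 in the knockout (249.3 to 303.5) and 267.9 in wild type (244.0 to 293.6), so the counting intervals overlapped. In both libraries the part of the gene body nearest its start was the best covered. With the body divided into 5 equal bins, the bin next to the start was covered to 26.7% in the knockout and 25.1% in wild type, and the adjoining bin to 2.85% in the knockout and 2.90% in wild type. The next bin was covered to 10.3% in the knockout and 7.44% in wild type, and the one after it to 14.0% and 10.5%. The bin farthest from the start was covered to 5.70% in the knockout and 0% in wild type. In the flank before the start, a domain was called as 2 knockout regions with 3367 bp together and as 1 wild-type region of 4774 bp.

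Tgfbr3 (chromosome 5, 107106567 to 107289629), the longest of these genes at 183063 bp, encodes betaglycan, a coreceptor that presents ligand to the type II receptor. It held 5723 bp in 10 regions in the knockout and 14837 bp in 23 regions in wild type, 38.6% of the wild-type length. Tag counts were 90.6 in the knockout (75.9 to 107.3) and 228.5 in wild type (206.4 to 252.3). No region exceeded 849 bp in the knockout or 1530 bp in wild type, and 7 knockout and 14 wild-type regions had the minimum length of 500 bp. Of 5 equal bins of the body, the first from the lower-coordinate end was covered to 0% in the knockout and 3.50% in wild type, and the next to 0% in the knockout and 8.55% in wild type. The first knockout region of the body began 89.2 kb from that end, and the first wild-type region 6.78 kb from it. Of the 10 knockout regions 4 shared a base with the other list, as did 4 of the 23 wild-type regions. Over the whole lists 41.0% of knockout and 29.8% of wild-type regions did so. For regions of 500 bp these whole-list shares were 25.7% and 16.0%. Among measured coding genes of 100 to under 300 kb, 41.9% were at least 2-fold lower in the knockout and 6.6% at least 2-fold higher. Once the stricter knockout threshold was also applied to 500 bp regions of wild type, Tgfbr3 no longer reached 2-fold, nor did it with the higher-scoring 50% of regions or with knockout lengths divided by the genome-wide ratio.

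**Figure D3:**
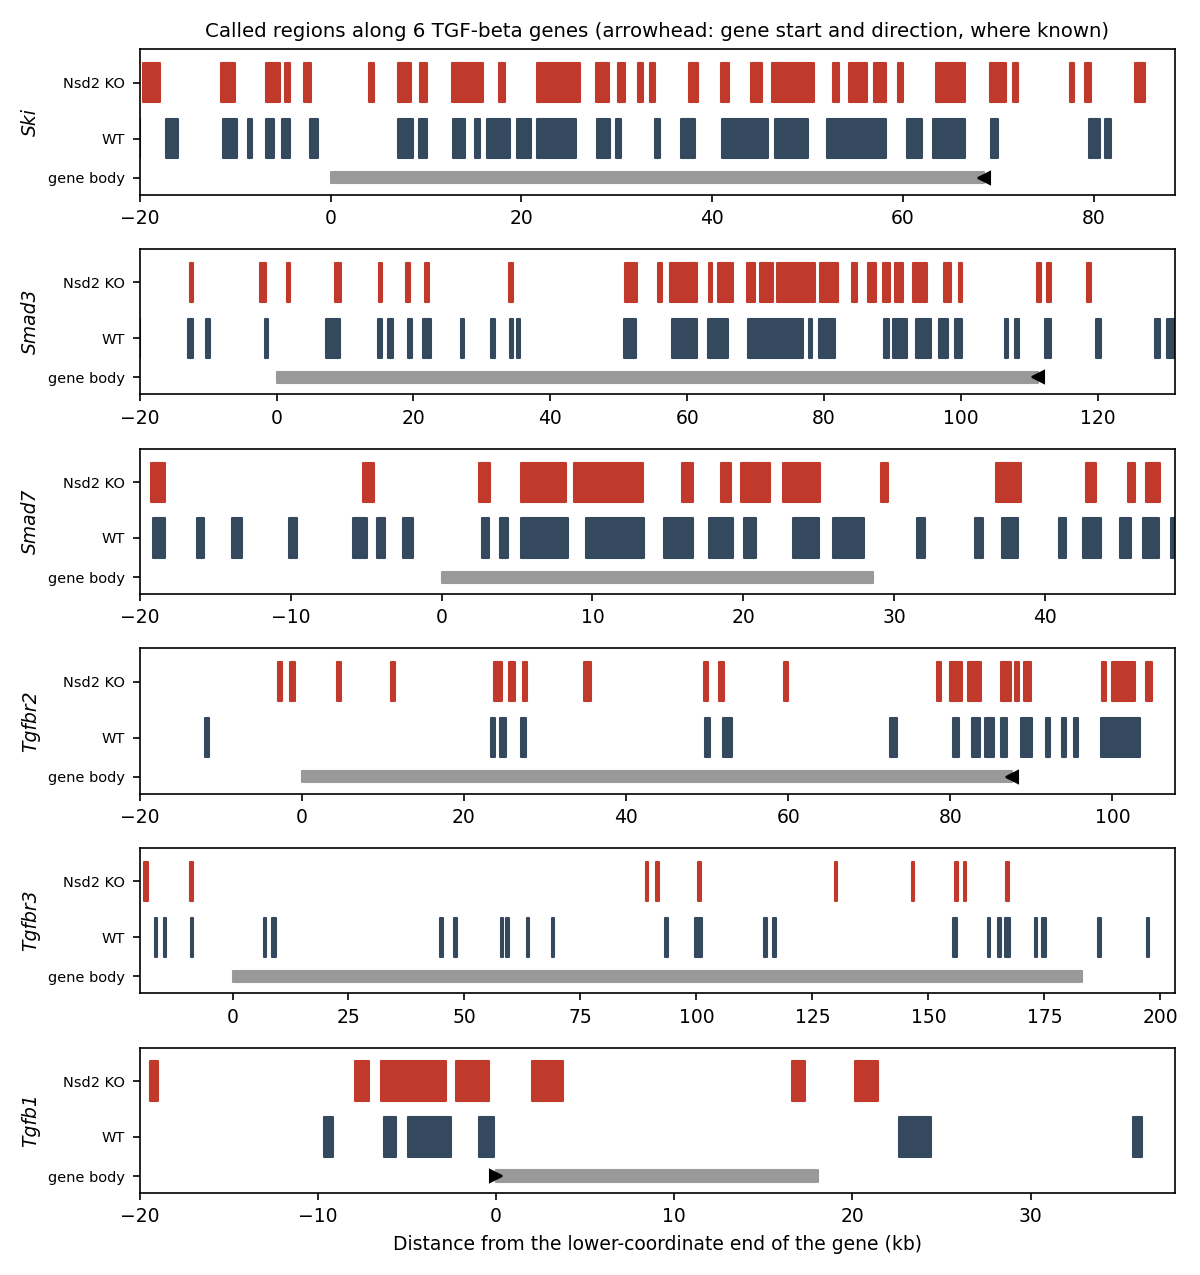
Called regions along 6 of the genes, with the knockout row above the wild-type row and the gene body in grey; the horizontal axis is distance in kb from the lower-coordinate end of the gene, and each panel has its own scale. Blocks of regions recur at the same places in Ski, Smad3 and Smad7. In Tgfbr3, 4 of 10 knockout and 4 of 23 wild-type regions share a base with the other row. The Tgfb1 body is marked in the knockout row alone.

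The receptor-regulated Smads stood far apart from each other. Smad3 (chromosome 9, 63646766 to 63757994) was covered over 34372 bp in 27 regions in the knockout and over 40407 bp in 30 regions in wild type, 85.1% of the wild-type length. Its tag counts were 636.6 in the knockout (596.6 to 678.6) and 706.2 in wild type (667.0 to 747.1). Of the gene body, 28.2% was covered in the knockout and 31.5% in wild type. Among the 13890 coding genes of at least 10 kb, 1.35% exceeded this share in the knockout and 1.14% did so in wild type. Smad2 (chromosome 18, 76241090 to 76311748), whose product carries the same signal, had 50 bp of 1 region in its window in the knockout and 1 region of 500 bp in wild type. It was therefore below the 1000 bp needed for a comparison.

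Within Smad3 the cover lay mostly inside the part of the gene nearer its start. Of 5 equal bins counted from the start, the first was covered to 24.3% in the knockout and 38.0% in wild type. The second was covered to 61.2% in the knockout and 50.7% in wild type, and the next to 40.7% in the knockout and 37.2% in wild type. These central bins were the best covered in the knockout, with more cover than in wild type, while the outer bins had less. The bin after them was covered to 2.25% in the knockout and 10.6% in wild type. In the longest domain, 3 knockout regions with 8635 bp faced 2 wild-type regions with 8583 bp, and their tag counts were 166.3 in the knockout and 167.0 in wild type. Another domain spanned 4034 bp with 88.9 tags in the knockout and 3660 bp with 87.4 tags in wild type.

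Smad4 (chromosome 18, 73634790 to 73703791) encodes the shared partner of all receptor-regulated Smads. It held no region in the knockout, and 1 region of 500 bp with 8.16 normalised tags in wild type. A count of 0 regions says only that no 500 bp peak reached the tag threshold. Tgfbr1, Smad2 and Smad4 together held 1434 bp in the knockout and 1500 bp in wild type over 321 kb of windows.

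Smad7 (chromosome 18, 75367365 to 75395935), the inhibitory Smad that TGF-beta signalling itself induces, had the largest covered share of its body. That share was 49.2% in the knockout and 55.7% in wild type, and only 48 knockout and 21 wild-type genes of at least 10 kb had a larger one. The window held 19946 bp in 14 regions in the knockout and 26227 bp in 24 regions in wild type, 76.1% of the wild-type length. Tag counts were 327.3 in the knockout (298.8 to 357.8) and 445.6 in wild type (414.5 to 478.3). The counting intervals did not overlap, but they do not cover which loci were called. Of the loci here, 13 were called in both libraries, 1 in the knockout alone and 11 in wild type alone. The order turned with the higher-scoring 50% of regions, where the knockout held 57.4% of the covered length of both libraries together, against 43.2% with all regions. With all regions, the difference lay more in the flanks than in the gene. On the lower-coordinate side 1654 bp were covered in the knockout and 4496 bp in wild type, and on the other side 4224 bp in the knockout and 5810 bp in wild type. Inside the gene the main domains recurred, one of 4546 bp in the knockout and 3838 bp in wild type, and one of 3010 bp in the knockout and 3053 bp in wild type. A wild-type region of 2039 bp near the higher-coordinate end of the body had no knockout counterpart. Of the 14 knockout regions, 13 shared a base with a wild-type region.

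Ski (chromosome 4, 155154075 to 155222535) encodes a corepressor of Smad complexes and had the longest cover of the 10 windows in both libraries. It held 38894 bp in 29 regions in the knockout and 43474 bp in 26 regions in wild type, 89.5% of the wild-type length. Tag counts were 699.1 in the knockout (657.1 to 743.0) and 711.7 in wild type (672.4 to 752.8), so the counting intervals overlapped. The median region length was 928 bp in the knockout and 1300 bp in wild type. The body was covered to 41.7% in the knockout and 51.6% in wild type, and 1 of the 26 wild-type regions, of 8936 bp, reached only 17 bp into the window. At one place the knockout had 3 regions with 3766 bp over 1 wild-type region of 6205 bp. At another the knockout had 2 regions with 1949 bp over 1 wild-type region of 4786 bp. Elsewhere the order was opposite, with 1 knockout region of 3306 bp over 2 wild-type regions of 1759 bp together, and a domain of 4396 bp in the knockout and 3500 bp in wild type. The highest peak score of all 10 windows, in both libraries, belonged to a region just before the Ski gene start. Its score, a value the authors' peak caller gave each region, was 29.5 in the knockout and 27.5 in wild type.

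Skil (chromosome 3, 31095058 to 31122923), the paralogue of Ski, encodes SnoN. Its window held 500 bp in 1 region in the knockout and 2958 bp in 5 regions in wild type, 5.92-fold lower in the knockout. The 3 wild-type regions inside the gene body had no knockout counterpart, and no base was shared between the lists. All 6 regions were under 1 kb, a length at which most regions of both whole lists were unshared. Over the whole lists, 25.7% of knockout and 16.0% of wild-type regions of 500 bp were shared. For wild-type regions over 500 bp and under 1 kb the share was 33.8%. Among measured coding genes of 10 to under 30 kb, 28.9% were at least 2-fold lower and 12.2% at least 2-fold higher. The paralogues differed in cover in both libraries, with Ski at 38894 bp and Skil at 500 bp in the knockout, and Ski at 43474 bp and Skil at 2958 bp in wild type.

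Tag density inside regions, over the 10 windows, ranged from 15.2 to 18.5 normalised tags per kb of covered length. Smad3 had 18.5 in the knockout and 17.5 in wild type, Ski 17.97 in the knockout and 16.4 in wild type, and Smad7 16.4 in the knockout and 17.0 in wild type.

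Pooled over the windows of these genes, a larger share of regions was called in both libraries than across the genome. Regions joined across the lists wherever they shared a base gave 169 loci in the windows, of which 40 were called in the knockout alone, 63 in wild type alone and 66 in both. The shared portion was 39.1% of loci, against 20.1% of 77102 loci on chromosomes 1 to 19 and X. Most of the shared loci were at Ski (19 of 33 loci), Smad3 (19 of 35) and Smad7 (13 of 25). Tgfbr2 had 9 of 25, Tgfbr3 4 of 29 and Tgfb1 2 of 10, while Tgfbr1, Smad2, Smad4 and Skil had none. The larger share was therefore not found at every gene. Of knockout regions in the windows, 64.0% (exact binomial 95% interval 54.3 to 72.9) shared a base with a wild-type region, against 41.0% of all knockout regions. Of wild-type regions, 52.6% (43.8 to 61.3) shared a base with a knockout region, against 29.8% of all wild-type regions. Region length accompanied this difference, as regions of 500 bp made up 34.2% of knockout regions and 37.6% of wild-type regions in the windows, but 54.3% and 52.7% in the whole lists. For regions of 500 bp the shares were 36.8% in the knockout (21.8 to 54.0) and 9 of 50 in wild type (interval 8.58 to 31.4%), against 25.7% and 16.0% in the whole lists. For regions over 500 bp and under 1 kb they were 67.6% in the knockout (49.5 to 82.6) and 57.9% in wild type (40.8 to 73.7), against 48.1% and 33.8%. All 13 knockout regions of 2 kb and over, and 18 of 19 wild-type ones, were shared, against 96.9% and 91.8% in the whole lists. These intervals treat regions as independent, which neighbours in 1 gene are not.

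**Figure D4:**
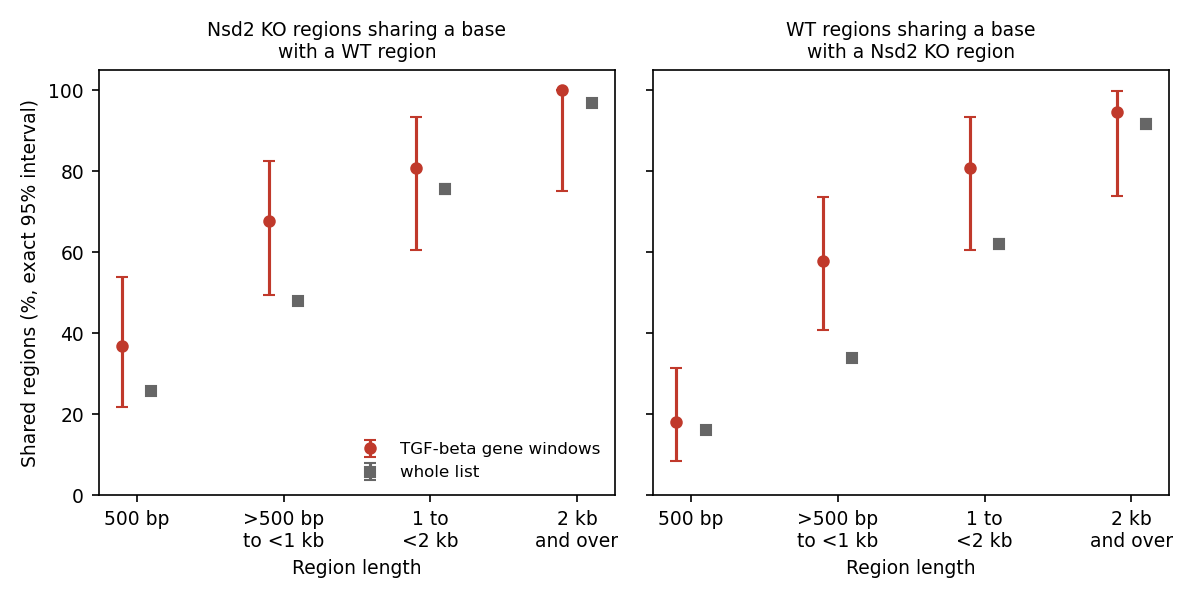
Percentage of regions that shared at least 1 base with the other library's list, by region length, for knockout regions (left) and wild-type regions (right); red points are regions in the windows of the TGF-beta genes, grey points the whole list on chromosomes 1 to 19 and X, and bars are exact binomial 95% intervals. The share goes up with region length in both sets, and the windows depart most from the whole list for wild-type regions over 500 bp and under 1 kb, at 57.9% against 33.8%.

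At loci called in both libraries the cover of the TGF-beta genes was somewhat shorter in the knockout. It came to 87.6% of the wild-type length over the 66 shared loci, with 90.9% of the wild-type tags. Over the 64 of these loci that lie wholly inside a window, an alternative chosen after seeing the data, it came to 92.1% of the length and 95.5% of the tags. Over all 15475 shared loci these percentages were 94.4% and 100.96%. The knockout cover was longer at 22 of the 66 loci and the wild-type cover at 41. Over all 15475 shared loci the knockout cover was longer at 5916 and the wild-type cover at 7391. Most shared loci, 57 of 66, paired 1 region with 1 region. In 5 loci 1 wild-type region faced several knockout regions, and in 3 the opposite held.

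The genes nearest to the 3 best-covered members in the covered share of the body, over the 2 libraries and among genes of at least 10 kb, were found by Euclidean distance. For Smad7 they were Nsmce1, Igsf23 and B3gnt2, at 2.73, 2.99 and 3.62 percentage points. For Ski they were Inf2, Abcb9 and Kcnn4, at 3.86, 5.55 and 5.83 points. For Smad3 they were Rnf126, Twf2 and Pgpep1l, at 0.84, 1.02 and 1.46 points.

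Beyond the 10 genes, a list of 50 other genes of the TGF-beta and BMP family pathways was examined in the same way. Of these, 39 had at least 1000 bp covered in either library. Among the 39, 20 were at least 2-fold lower in the knockout and 2, Tgfb2 and Smad5, at least 2-fold higher, or 51.3% and 5.13%. Over all measured coding-gene windows these shares were 31.3% and 12.2%. They varied with gene length, at 35.9% and 9.29% for genes of 30 to under 100 kb and 41.9% and 6.6% for genes of 100 to under 300 kb. The list was not matched for length and was not run under the alternative settings. The median difference, knockout minus wild type, was -1393 bp, against -626 bp over all measured coding-gene windows and -3519 bp over the 8 measured core genes. This median varied with gene length, from -146 bp for coding genes of 2 to under 10 kb to -1598 bp for those of 300 kb and over. Windows of the core genes also held more cover, 11.4% of their length in the knockout and 13.5% in wild type. Over all coding-gene windows it was 2.28% in the knockout and 2.78% in wild type, so medians in base pairs do not compare proportional change. Summed over the 50 listed genes, cover was 126.5 kb in the knockout and 198.3 kb in wild type, 63.8% of the wild-type length. The same percentage was 84.4% for the 10 core genes and 82.05% for all coding-gene windows. It was 77.4% for coding genes of 30 to under 100 kb and 67.2% for those of 100 to under 300 kb.

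The best-covered gene of that list was Pmepa1, a TGF-beta-induced feedback inhibitor, with 25397 bp in the knockout and 31012 bp in wild type. Lrrc32, which encodes the Treg surface protein GARP that docks latent TGF-beta, followed with 16838 bp in the knockout and 17179 bp in wild type. Furin, a protease that matures the TGF-beta precursor, held 10268 bp in the knockout and 13563 bp in wild type. The largest differences toward less knockout cover were at Bmp7, a BMP ligand gene, with 6084 bp in the knockout and 17650 bp in wild type, and at Nedd4l, a ubiquitin ligase of activated Smads, with 2883 bp in the knockout and 12657 bp in wild type. Pmepa1 was the third. The largest toward more knockout cover were small. Acvr1b, an activin type I receptor gene, had 7082 bp in the knockout and 5455 bp in wild type. Ltbp3, a latent TGF-beta binding protein gene, had 4106 bp in the knockout and 3019 bp in wild type. Smad5, a BMP-responsive Smad, had 1000 bp in the knockout and 0 bp in wild type. The same difference was found at Ltbp1, another latent TGF-beta binding protein gene, with 2500 bp in the knockout and 1500 bp in wild type. Smad6, the other inhibitory Smad, held 1000 bp in the knockout and 5735 bp in wild type, and was named here after its values were seen.

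**Figure D5:**
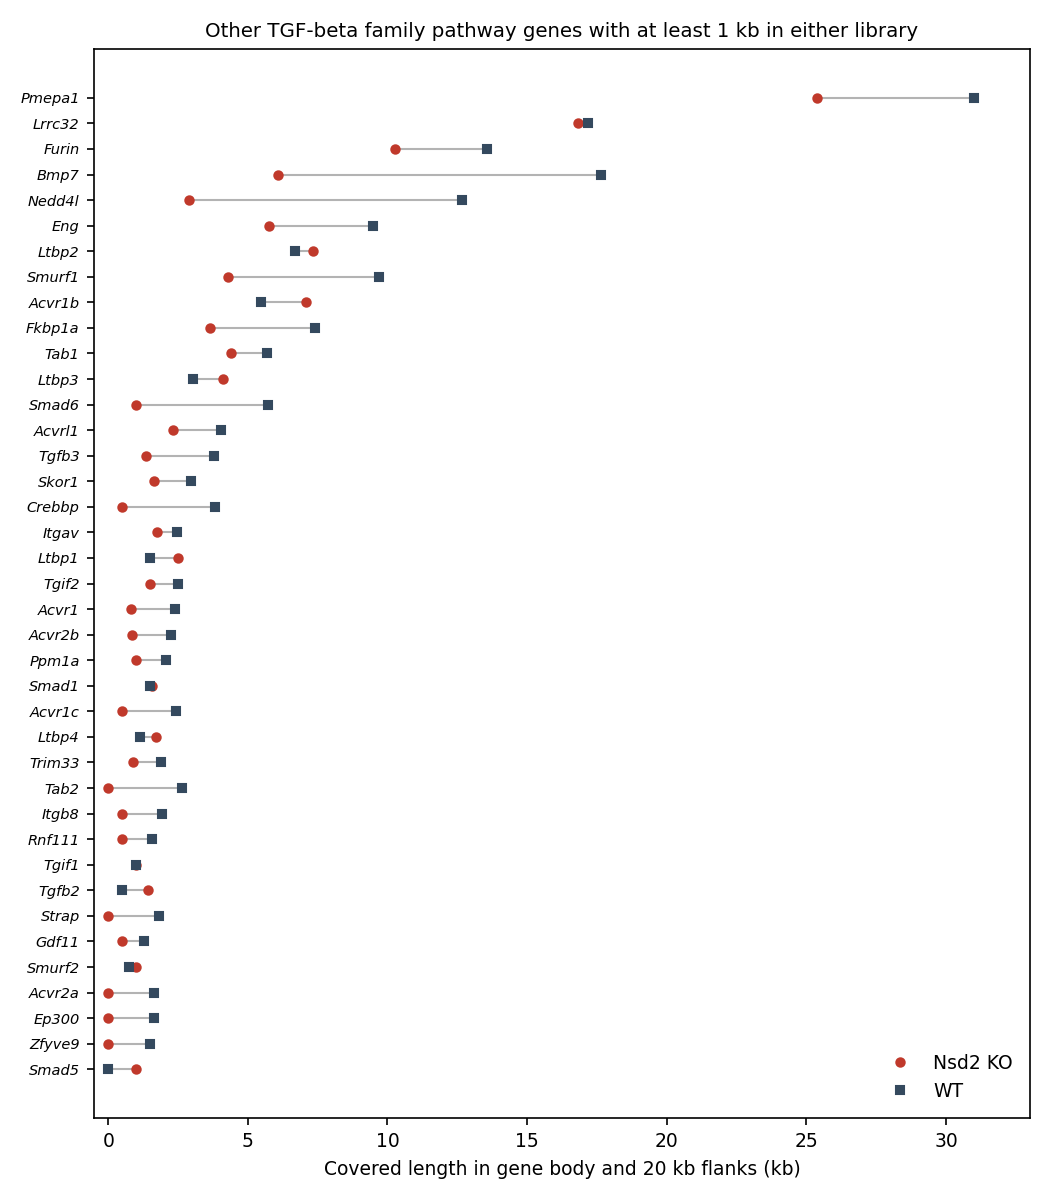
Covered length (kb) in the gene body and 20 kb flanks of the 39 other pathway genes with at least 1 kb in either library, ordered by their mean over both; red circles are the knockout library and dark squares the wild-type library. Pmepa1 and Lrrc32 lead the list, and the widest gaps, at Bmp7 and Nedd4l, have the wild-type square on the right.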

How the data were processed

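Per the labels' protocols, H3K36me2 libraries were prepared with an in situ ChIP kit. Reads had been handled with Picard, Bowtie2 and Trim Galore, and with HOMER and deepTools (versions not stated), on mm10, per the submitters' processing notes. Per the file headers, the authors ran HOMER's histone mode separately on each library and named no control. They stitched peaks of 500 bp, at least 1000 bp apart, keeping those past Poisson limits of 0.001 genome-wide and 0.0001 locally within 10000 bp. The signal value is the authors' normalised tag count, which the file headers give as scaled to a total of 10000000. This hides any genome-wide change in the mark. The score deposited by the authors was used to rank and filter regions. The ratio column, a clonal fold change that the authors' peak caller wrote per the file headers, was not used.

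Coordinates are as deposited, and region length is end minus start. Gene positions came from RefSeq (GRCm38.p6). Strand was known for the 5 genes in the promoter table. Tags of regions crossing a window edge were counted in proportion to length. Overlap needed 1 bp. Intervals are exact Clopper-Pearson or Poisson at 95%. No test between genotypes was possible with 1 library each. The code, in Python 3.11.15 with pandas 2.3.3, numpy 2.4.6 and scipy 1.17.1, was tested on simulated data. With all regions removed over 200 wild-type gene windows, 200 were called lower, and 0 of 10387 untouched windows were called. This outcome was fixed by the construction, so it checks the code alone. It cannot give the rate of wrong calls between 2 libraries. The genes, lists and rules were chosen with earlier results of these data known. Genes named from the other pathway list are those with the 5 longest mean covers and the 3 largest differences each way, ties included. Smad6 and Tgfb2 were named outside this rule, after their values were seen. Of the marker lists for other cell types, 2 are not reported here.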

Additional observations from a re-analysis of the deposited data

How the results depend on the processing

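Under 8 alternatives for the pooled cover (flanks of 0, 5 or 50 kb, regions of at least 1 kb, a common tag threshold, the higher-scoring 50% of regions, merging across gaps under 1 kb, and tags in place of base pairs) the knockout ranged from 84.0% to 90.4% of wild type, except for 109.9%, the opposite direction, with the higher-scoring 50%. The number of genes at least 2-fold lower became 1 with regions of at least 1 kb (Tgfbr3), and 1 with the common threshold, the higher-scoring 50% or division by the genome-wide ratio of covered lengths (Skil each time). Of all coding-gene windows, 39.9% were lower with regions of at least 1 kb, 37.0% with the higher-scoring 50% and 20.2% with that division. The number at least 2-fold higher became 2 with 5 kb flanks, the higher-scoring 50% or that division (Tgfb1 and Tgfbr1), and 0 with 50 kb flanks. The shares of all windows were 15.2%, 17.9%, 19.5% and 7.95%, in that order. The number of higher genes stayed at 1 with no flanks and with regions of at least 1 kb, but the gene was Tgfb1 and not Tgfbr1. Here 14.8% and 24.3% of all windows were higher. With the common threshold, which removes wild-type regions of 500 bp only, 19.8% of all coding-gene windows were at least 2-fold lower and 22.4% higher. The share of regions with a counterpart became 29.5% for the knockout and 27.8% for wild type with the higher-scoring 50%, and 53.2% and 36.1% when 50% of the region had to be covered. Whole-list shares were not computed under these 2 settings. The values therefore cannot be set against the whole-list shares given above, and whether the windows still exceed the whole lists is unknown. The cause of these shifts was not tested. Of 75 single-gene values, 67 stayed inside the binomial interval of the knockout share, with the regions of both lists as n, and 8 moved. These intervals are very wide for genes with few regions, so the count is a weak check of stability. For Smad2 the knockout share went from 9.09% to 50% with 50 kb flanks and still stayed inside. Across the alternatives that gave a value, Tgfb1 and Tgfbr1 kept the longer cover in the knockout and Tgfbr3, Smad4 and Skil the longer cover in wild type, while Tgfbr2, Smad2, Smad3, Smad7 and Ski took both orders. No paired analysis was possible because each genotype has 1 library. Without a replicate, the difference between repeat libraries of 1 genotype is unknown.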
